A study of Homo sapiens with 6 samples.

Results

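The mucin and dual oxidase genes of HCC-LM3 cells were followed across 6 RNA-seq libraries. They were picked by gene symbol (MUC5B, MUC5AC, MUC1, MUC13, DUOX1, DUOX2 and DUOXA2), and all 7 symbols were among the 23059 genes of the deposited tables. The study compared 3 cultures of HCC-LM3, a human hepatocellular carcinoma line of high metastatic potential, treated with apigenin, a plant flavone, with 3 cultures of the same line given DMSO, the solvent control. Its title concerns microvesicle formation and tumour angiogenesis. All 6 libraries come from 1 cell line, and the labels call the cultures biological replicates. The sources used here give neither the dose nor how long the cells were treated. The genes were chosen with results of this comparison already known, so their levels, fold changes and calls are a description and not an independent test. Levels are given as CPM (reads of a gene relative to the TMM-scaled library total) or, where genes are compared with each other, as the deposited FPKM, which also divides by gene length. Log2 fold changes are apigenin over DMSO with their standard error.

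Mucins are large glycoproteins with long stretches of serine and threonine that carry sugar chains. MUC5B and MUC5AC are secreted and link into the gels of airway, gastric and biliary mucus, whereas MUC1 and MUC13 stay in the apical membrane of epithelial cells and have cytoplasmic tails that take part in signalling. DUOX1 and DUOX2 are NADPH oxidases that release hydrogen peroxide at the apical surface, which serves hormone synthesis in the thyroid and host defence at mucosal surfaces, and DUOXA1 and DUOXA2 are the maturation factors that let them leave the endoplasmic reticulum.

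With apigenin, DUOX2 and MUC5B stood at about 0.48 and 0.51 times their DMSO level, MUC13 at 0.85 times, and MUC1 at 1.46 times. Of the 7 genes, 6 passed the filter on low counts, each with 47 or more reads in every library, and DUOX1 did not pass it. Of these 6, 3 fell (DUOX2, MUC5B and MUC13), 1 rose (MUC1) and 2 did not pass the threshold (DUOXA2 and MUC5AC) in edgeR's quasi-likelihood test at an adjusted p of 0.05. Over all 15173 tested genes 6.99% were called, 4.22% lower and 2.76% higher. Since the choice of the genes drew on this comparison, nothing is read from the difference between these shares. In CPM, all 3 apigenin libraries lay below all 3 DMSO libraries for 5 of the 6 genes and above them for MUC1. The same held for 15.0% (lower) and 14.4% (higher) of the tested genes.

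**Figure D1:**
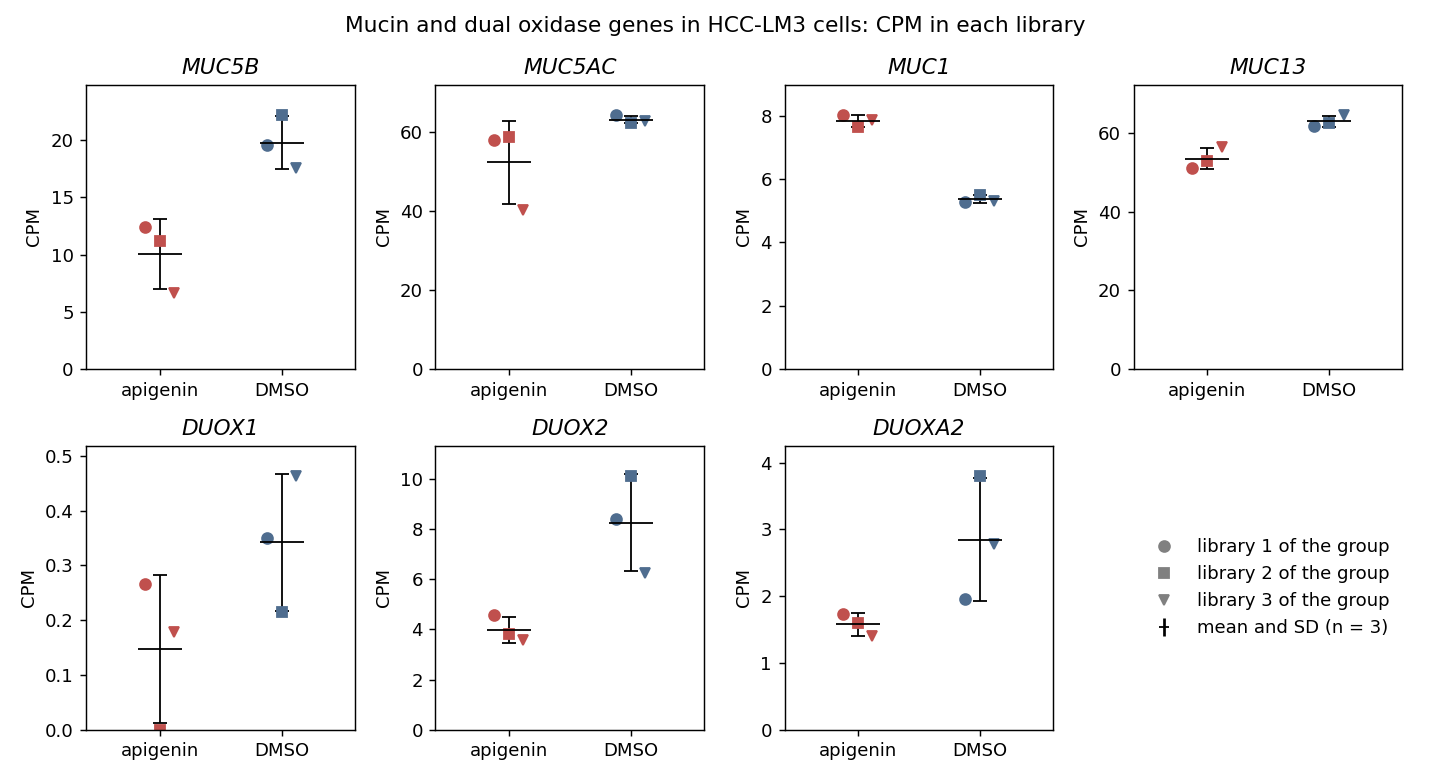
Each panel plots the CPM of 1 gene (vertical axis, from 0) in the 3 apigenin (left) and 3 DMSO libraries (right), with the mean and SD. The groups do not overlap for MUC5B, MUC5AC, MUC1, MUC13, DUOX2 and DUOXA2, and they overlap for DUOX1, which stays under 0.5 CPM.

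Per length, MUC13 had the highest level of the 7 genes in both groups, with 18.6 ± 0.784 FPKM in apigenin and 21.9 ± 0.438 FPKM in DMSO cultures (SD, n = 3 each). MUC5AC came next with 3.0 ± 0.629 FPKM in apigenin and 3.62 ± 0.0535 FPKM in DMSO cultures. In apigenin cultures the order went on with MUC1 (1.92 ± 0.0401 FPKM), DUOXA2 (0.870 ± 0.10), DUOX2 (0.626 ± 0.0843), MUC5B (0.563 ± 0.175) and DUOX1 (0.0256 ± 0.0235). The libraries of DUOX2 and MUC5B overlapped there, and those of the other neighbours did not. In DMSO cultures the order went on with DUOXA2 (1.57 ± 0.511 FPKM), MUC1 (1.32 ± 0.0336), DUOX2 (1.30 ± 0.307), MUC5B (1.10 ± 0.132) and DUOX1 (0.0594 ± 0.0215). The ranges of DUOXA2 and MUC1, of MUC1 and DUOX2, and of DUOX2 and MUC5B overlapped in DMSO cultures, so their order there lies within the spread of the libraries. MUC1 thus stood above DUOXA2, DUOX2 and MUC5B in the apigenin libraries, and within the range of DUOXA2 and DUOX2 in the DMSO libraries. In bulk RNA of this kind, fewer cells that make a transcript and less of it per cell cannot be told apart.

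The gel-forming mucins MUC5B and MUC5AC lie side by side in the mucin cluster on chromosome 11 of GRCh38, MUC5AC from 1157953 to 1201138 and MUC5B from 1223066 to 1262172, with 21927 bases between them and both on the plus strand. MUC5B had 422, 428 and 222 reads in the apigenin libraries, against 729, 829 and 607 reads in the DMSO libraries. This corresponds to 12.4, 11.2 and 6.61 CPM with apigenin, against 19.6, 22.2 and 17.6 CPM with DMSO. The apigenin libraries were all lower, and apigenin 3 was the lowest by a wide margin. MUC5B fell by 0.97 ± 0.18 on the log2 scale (10.1 ± 3.07 CPM with apigenin and 19.8 ± 2.31 CPM with DMSO, SD, n = 3 each). The call was lost without DMSO 2 (-0.88), and without apigenin 3 the gene stood at -0.75 and kept it. MUC5B overlaps the antisense gene MUC5B-AS1 over 7416 bases. This gene had 0, 0 and 1 reads in the apigenin and 4, 0 and 0 in the DMSO libraries. The sources used here do not say whether the counting used strand, so these counts do not settle how the overlap affected MUC5B.

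MUC5AC was the more abundant of the pair, with 1972, 2251 and 1352 reads in the apigenin and 2390, 2335 and 2173 in the DMSO libraries. The values were 58.1, 58.8 and 40.2 CPM with apigenin, against 64.3, 62.5 and 62.9 CPM with DMSO. The DMSO libraries differed little from each other, apigenin 1 and 2 lay just under them, and apigenin 3 lay far under. The log2 fold change was -0.27 ± 0.11 and did not pass the threshold. Without apigenin 3 it was -0.11, and without apigenin 2 it was -0.36 and passed. Within each library, the ratio of MUC5B to MUC5AC in FPKM was 0.208, 0.185 and 0.160 with apigenin, against 0.297, 0.346 and 0.272 with DMSO. The ratio was lower in every apigenin library than in any DMSO library. The 2 genes are of nearly equal length (17911 and 17448 nucleotides as the deposited FPKM imply). The part of length in this ratio was not tested. Both genes hold tandem repeats, as does MUC1, and the sources used here do not say how reads that match several places were counted.

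**Figure D2:**
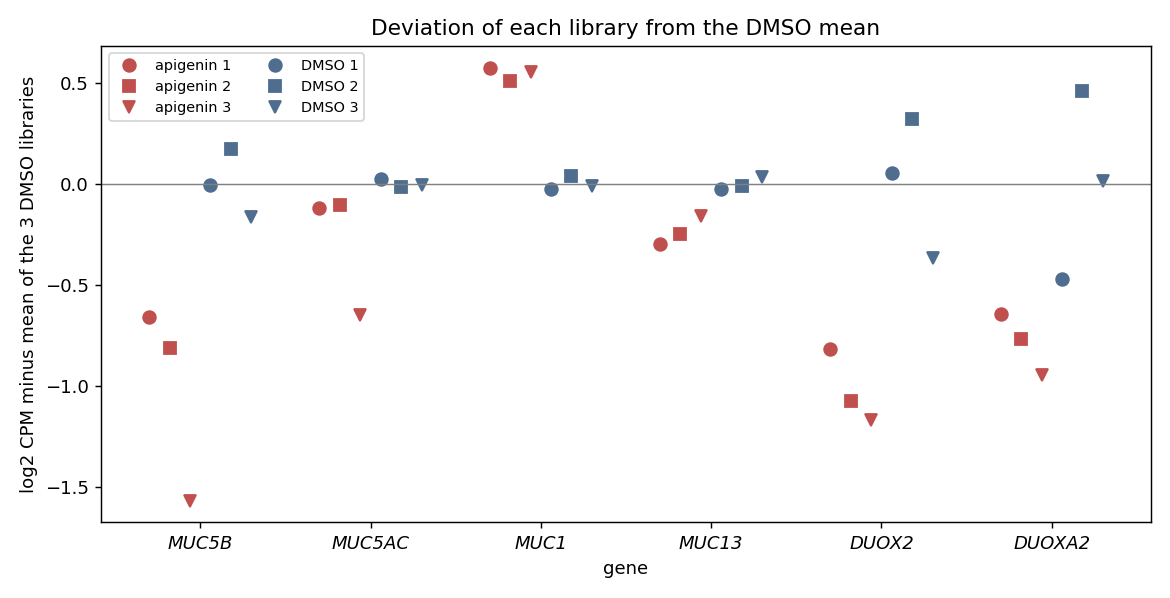
For the 6 tested genes (horizontal axis), each point is the log2 CPM of 1 library minus the mean of the 3 DMSO libraries (vertical axis). Apigenin 3 stands apart for MUC5B and MUC5AC, the 3 apigenin libraries sit together for MUC1, and the DMSO libraries spread widely for DUOX2 and DUOXA2.

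Of the membrane mucins, MUC1 (chromosome 1, 155185824 to 155192915, minus strand), which is often raised and loses its polarity in carcinomas, was the gene of the 7 that rose. It had 272, 293 and 265 reads in the apigenin libraries, against 196, 206 and 184 in the DMSO libraries. In CPM these were 8.02, 7.65 and 7.89 with apigenin and 5.27, 5.51 and 5.33 with DMSO. The libraries of a group lay close together, with a coefficient of variation of 2.40% with apigenin and 2.32% with DMSO. MUC1 rose by 0.55 ± 0.13 on the log2 scale. The fold change was 0.53, 0.57 and 0.54 without DMSO 1, 2 or 3 and 0.53 without apigenin 1, each of which ended the call. Calls over all genes also fell in these settings, to 157 to 184 lower and 103 to 140 higher, against 641 and 419 as reported.

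MUC13 (chromosome 3, 124905442 to 124934751, minus strand), a mucin of the gut lining that is also found in carcinomas, had 1736, 2027 and 1896 reads in the apigenin libraries, against 2299, 2338 and 2229 in the DMSO libraries. It had 51.2, 52.9 and 56.4 CPM with apigenin and 61.9, 62.5 and 64.5 CPM with DMSO. The change was small but the groups did not overlap, and apigenin 3, the lowest library for MUC5B, was the highest of its group for MUC13. MUC13 fell by 0.23 ± 0.07 on the log2 scale, close to the threshold. The call was lost without DMSO 1, 2 or 3 (-0.25, -0.24 and -0.22) or apigenin 1 (-0.21), where calls over all genes fell too. It was also lost with upper-quartile scaling (-0.23) and with a term for replicate number in the fit (-0.24). The ratio of MUC1 to MUC13 in FPKM was 0.111, 0.102 and 0.0987 in the apigenin libraries, against 0.0602, 0.0622 and 0.0583 in the DMSO libraries. MUC1 and MUC13 thus moved in opposite directions.

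The sequence upstream of both membrane mucin genes is shown because they went opposite ways. From the 250 bases before the start of each gene (RefSeq, GRCh38.p14, printed 5′ to 3′ on the gene's strand), MUC1 is chr1:155192916-155193165 and MUC13 is chr3:124934752-124935001. Capitals mark letters that match, on either strand, any of 7 patterns. These are the core of the xenobiotic response element, spelled GCGTG. The AP-1 pattern is TGANTCA, where N is any base. The GC box to which SP1 binds is spelled GGGCGG. The TATA box, which sets the start of transcription, is TATAAA. The forkhead factors recognise a pattern written here as TGTTTAC. The STAT pattern is TTCNNNGAA, and the NF-kappaB pattern was searched as 3 G, any 5 bases and 2 C.
MUC1: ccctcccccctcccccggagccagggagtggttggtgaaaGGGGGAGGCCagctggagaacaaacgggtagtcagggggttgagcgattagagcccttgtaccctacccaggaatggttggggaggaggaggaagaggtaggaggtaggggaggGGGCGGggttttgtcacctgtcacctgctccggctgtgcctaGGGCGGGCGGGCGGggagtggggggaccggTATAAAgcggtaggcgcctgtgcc
MUC13: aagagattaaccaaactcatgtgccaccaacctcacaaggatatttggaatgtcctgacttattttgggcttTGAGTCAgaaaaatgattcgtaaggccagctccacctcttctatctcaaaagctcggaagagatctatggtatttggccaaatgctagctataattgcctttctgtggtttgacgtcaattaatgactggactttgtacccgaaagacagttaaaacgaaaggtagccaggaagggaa

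The windows differed in composition, with 66.0% G and C upstream of MUC1 and 41.6% upstream of MUC13. The MUC1 window held a TATA box that begins 24 bases before the start, 4 GC boxes of which 3 overlap each other, and 1 NF-kappaB pattern. The MUC13 window held 1 AP-1 pattern that begins 178 bases before the start. Among the windows of the same length of 27305 genes, 11.1% held the TATA box pattern, 42.3% the GC box, 53.7% the NF-kappaB pattern and 6.60% the AP-1 pattern. These are matches of letters and not sites of binding.

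The dual oxidase genes form a compact cluster on chromosome 15, where each oxidase stands head to head with a maturation factor. DUOX2 (45092650 to 45114172, minus strand) and DUOXA2 (45114326 to 45118421, plus strand) are 153 bases apart, and DUOX1 (45129994 to 45165574, plus strand) starts 114 bases from DUOXA1 (minus strand).

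**Figure D3:**
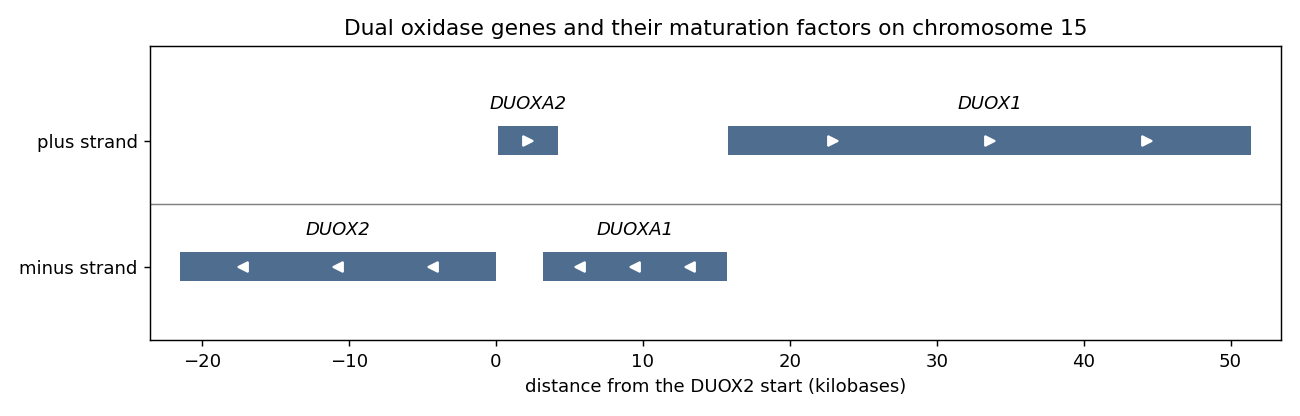
The 4 genes are drawn to scale by their distance from the DUOX2 start in kilobases (horizontal axis), with the plus strand above and arrowheads in the direction of transcription. DUOX2 and DUOXA2 diverge from a shared gap, as do DUOXA1 and DUOX1, and the ends of DUOXA2 and DUOXA1 overlap.

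DUOX2, the oxidase whose loss causes congenital hypothyroidism, had 155, 146 and 120 reads in the apigenin libraries, against 312, 378 and 216 in the DMSO libraries. It had 4.57, 3.81 and 3.57 CPM with apigenin and 8.40, 10.1 and 6.25 CPM with DMSO. All apigenin libraries were below the lowest DMSO library, and the DMSO libraries varied more (coefficient of variation 13.1% with apigenin and 23.4% with DMSO). DUOX2 fell by 1.05 ± 0.18 on the log2 scale, and this call held when any 1 library was left out (-1.22 to -0.88).

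DUOXA2, its maturation factor, had 59, 61 and 47 reads in the apigenin libraries, against 73, 142 and 96 in the DMSO libraries. Its level was 1.74, 1.59 and 1.40 CPM with apigenin, against 1.96, 3.80 and 2.78 CPM with DMSO. The groups did not overlap, but DMSO 1 lay close above the apigenin libraries and DMSO 2 far above. The log2 fold change was -0.85 ± 0.29, and DUOXA2 did not pass the threshold. Without DMSO 2 it was -0.59, and without DMSO 1 it was -1.06. The ratio of DUOX2 to DUOXA2 in FPKM was 0.747, 0.681 and 0.726 in the apigenin libraries, against 1.22, 0.757 and 0.640 in the DMSO libraries. The ratios of the groups overlapped. DUOXA2 shares 1056 bases at its end with DUOXA1 on the other strand. The sources used here do not say whether the counting used strand, so these counts do not settle how the overlap affected either gene.

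DUOX1 was close to undetected. It had 9, 0 and 6 reads in the apigenin libraries, against 13, 8 and 16 in the DMSO libraries, and it failed the filter. The 0 reads in apigenin 2 allow up to 0.0790 CPM (3 counts, counting error only). No fold change is given for it. DUOX1 and DUOX2 are close paralogs, so reads could be shared between them. DUOXA1, the gene beside it, had 32, 19 and 33 reads with apigenin and 47, 43 and 34 with DMSO, with a log2 fold change of -0.49 that did not pass.

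The gaps between the paired starts are printed because the genes on either side share them. Both come from the RefSeq upstream table on GRCh38.p14 and are written on the plus strand, with capitals for matches to the same 7 patterns. The first is chr15:45114173-45114325 and reads from the DUOX2 start to the DUOXA2 start, and the second is chr15:45129880-45129993 and reads from the DUOXA1 start to the DUOX1 start.
DUOX2 and DUOXA2: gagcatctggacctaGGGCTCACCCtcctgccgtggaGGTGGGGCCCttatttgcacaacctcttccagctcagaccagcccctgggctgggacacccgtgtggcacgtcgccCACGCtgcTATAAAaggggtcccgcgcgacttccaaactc
DUOX1 and DUOXA1: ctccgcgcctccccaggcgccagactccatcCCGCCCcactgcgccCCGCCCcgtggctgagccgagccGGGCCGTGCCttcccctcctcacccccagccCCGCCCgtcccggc

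The gap of the expressed pair held a TATA box pattern that faces DUOXA2 and begins 32 bases before its start, 1 core of the xenobiotic response element, which is bound by the aryl hydrocarbon receptor with its partner ARNT, and the NF-kappaB pattern in 2 places, at one of them on both strands. The gap of the weakly detected pair held 3 GC boxes and 1 NF-kappaB pattern, and its G and C content was 80.7%, against 63.4% in the other. In windows of 153 bases, 7.16% of the 27305 genes held the TATA box pattern, 23.7% the xenobiotic core and 43.2% the NF-kappaB pattern. In windows of 114 bases, 33.3% held the GC box and 36.5% the NF-kappaB pattern. Upstream sequence in that table covered 5 of the 7 genes, without MUC5B and MUC5AC.

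The libraries held 33882145, 37983636 and 34011537 counts with apigenin and 37173442, 37276429 and 34647650 with DMSO. Pairs of replicates had a chi-square per degree of freedom of 9.23 to 29.6 among apigenin and 4.40 to 5.26 among DMSO libraries, where counting noise alone gives about 1. Fold changes fell with gene length. Each doubling of length shifted a library's level, set against the mean of the DMSO libraries, by -0.071, -0.021 and -0.147 log2 units in apigenin 1, 2 and 3, against 0.0015, -0.0047 and 0.0032 in the DMSO libraries. Among the 373 tested genes of 15000 nucleotides or more, which include both gel-forming mucins, the median log2 fold change was -0.19, and 56 fell and 3 rose. MUC5B and MUC5AC were lowest in apigenin 3, the library with the steepest slope. So were DUOX2 (3.57 CPM) and the short gene DUOXA2 (1.40 CPM), whereas MUC13 was highest of its group there (56.4 CPM). The part of length in these values was not tested.

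With each library's trend on length removed, the direction of the 6 genes was kept and the long genes moved most. MUC5B stood at -0.78 ± 0.14 and kept its call, and MUC5AC stood at -0.07 ± 0.07 without one. DUOX2 stood at -0.99 ± 0.18, MUC13 at -0.28 ± 0.06 and MUC1 at 0.54 ± 0.14, all 3 still called. The short gene DUOXA2, of 1811 nucleotides, moved the other way to -0.95 ± 0.29 and passed the threshold. In this fit 4 of the 6 genes were lower and 1 higher, against 5.38% and 4.63% of all tested genes.

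**Figure D4:**
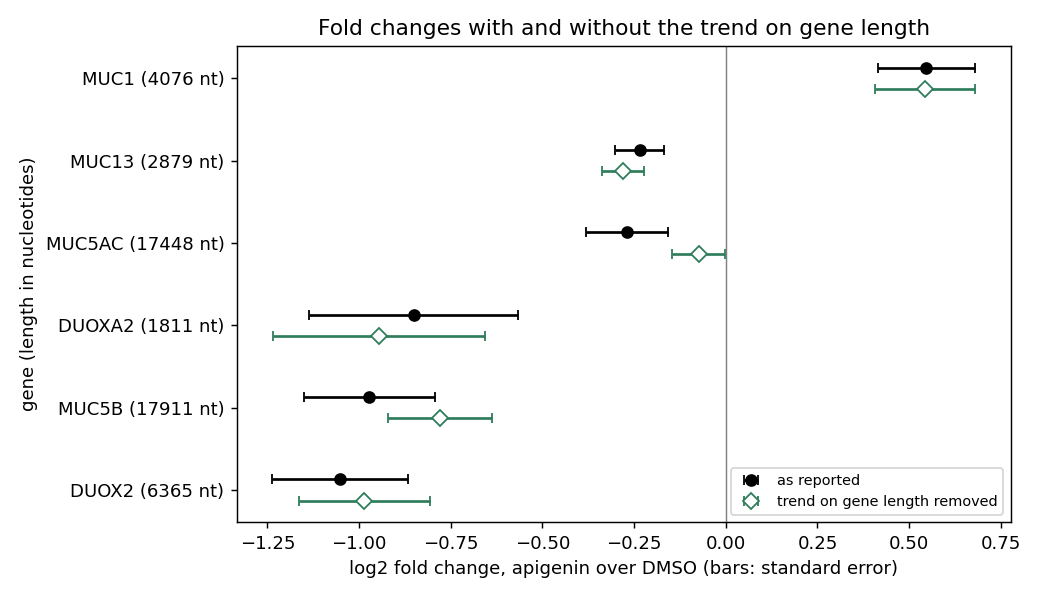
Log2 fold changes of apigenin over DMSO (horizontal axis, bars are standard errors) are drawn for the 6 tested genes with their lengths, as reported and after the trend on length was removed. MUC5AC moves from -0.27 to -0.07 and MUC5B from -0.97 to -0.78, DUOX2 from -1.05 to -0.99, MUC13 from -0.23 to -0.28 and DUOXA2 from -0.85 to -0.95, while MUC1 stays near 0.55.

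**Figure D5:**
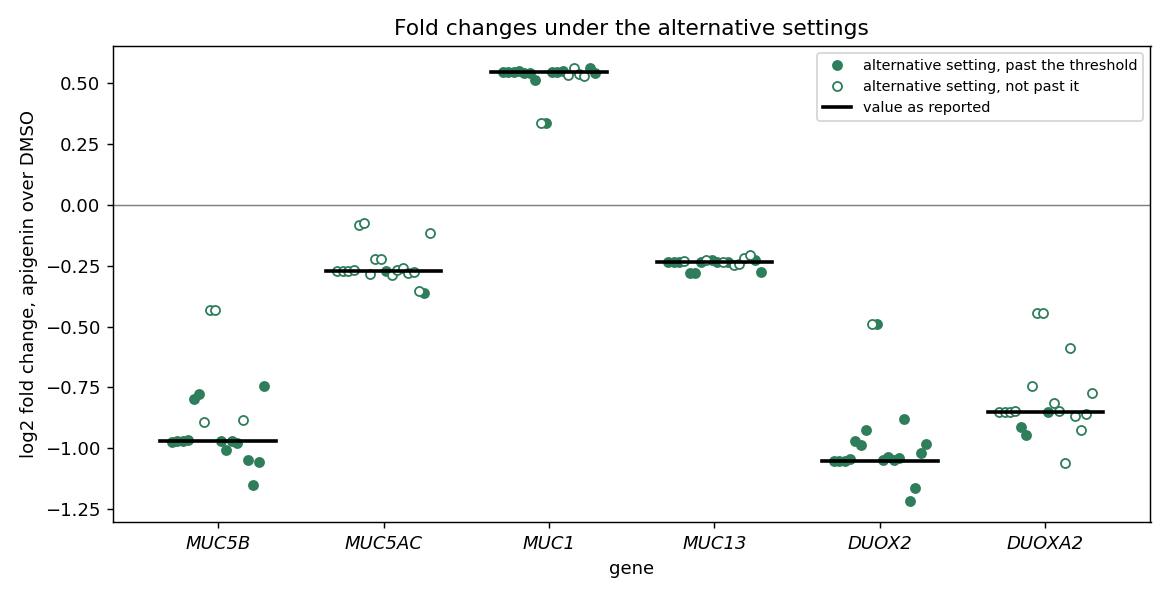
For each tested gene the line is the reported log2 fold change and the points are the alternative settings, filled where the gene passed the threshold. No gene changed sign in the settings run, DUOX2 passed in 17 of 18, and MUC5AC passed in 2.

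The genes whose libraries varied most like those of DUOX2 and MUC5B were sought among 10711 other tested genes that averaged at least 5 CPM, by the Euclidean distance between centred log2 CPM values over the 6 libraries. For DUOX2 these were FOSB, which encodes an AP-1 subunit (distance 0.491), SYTL5, which encodes a synaptotagmin-like protein (0.491), and CHST3, a sulfotransferase gene (0.495). Their log2 fold changes were -1.18, -0.76 and -0.81. For MUC5B they were VCAN, which encodes the proteoglycan versican (0.298), ANKRD36C (0.319) and SLC6A12, a betaine transporter gene (0.393). Their log2 fold changes were -0.86, -1.08 and -0.77. VCAN had 5.19, 5.64 and 3.16 CPM in the apigenin libraries, against 8.61, 8.72 and 8.16 CPM in the DMSO libraries. Its lowest library was apigenin 3 too. These genes were picked for likeness over the same libraries, so their fold changes and low libraries add no separate observation. ANKRD36C belongs to a family of close copies, so its level is uncertain.

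Of 17 other mucin genes, 6 were tested, and of these 1 fell and 5 did not pass, with a median log2 fold change of 0.04, against 0.0039 over all tested genes. The gene that fell was MUC3A, a membrane mucin of the gut, with 6.58 ± 0.456 CPM in apigenin and 9.67 ± 1.07 CPM in DMSO cultures (log2 fold change -0.56 ± 0.13, edgeR adjusted p = 0.0253). It lost its call with the length trend removed (-0.40) and without DMSO 1, DMSO 2 or apigenin 1 (-0.54, -0.49 and -0.61), and it has close relatives with which reads could be shared. The other mucins with the highest levels per length were MUC20 (5.35 ± 0.705 FPKM with apigenin and 5.21 ± 0.391 FPKM with DMSO) and MUC15 (1.72 ± 0.159 FPKM with apigenin and 2.05 ± 0.180 FPKM with DMSO), and neither passed. The gel-forming mucin MUC2 had 1 read over the apigenin and 6 over the DMSO libraries, and MUC6 had 1 read over the apigenin libraries and 0 over the DMSO libraries.

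Among 10 tested NADPH oxidase subunits and maturation factors, DUOXA1 included, 1 rose and 9 did not pass (median log2 fold change 0.05). The gene that rose was CYBA, which encodes the p22-phox subunit of NADPH oxidases, with 127 ± 15.8 CPM in apigenin and 100.1 ± 6.41 CPM in DMSO cultures (0.35 ± 0.08, edgeR adjusted p = 0.0268). The call was lost without DMSO 1, 2 or 3 or apigenin 1 (0.32 to 0.40), where calls over all genes fell too. Without apigenin 2, 3 genes of the list were higher. Over all genes 1344 were higher and 1546 lower there, against 419 and 641 as reported. RAC1, a small GTPase that activates some oxidases, had 197 ± 15.3 FPKM with apigenin and 182 ± 0.903 FPKM with DMSO and did not pass. The catalytic subunit genes were low, with 43 reads of NOX1 over the apigenin and 29 over the DMSO libraries, 63 of CYBB over the apigenin and 110 over the DMSO libraries, and 58 of NOX5 over the apigenin and 93 over the DMSO libraries, and none of these 3 passed. Of the genes that handle iodide and chloride around the thyroid oxidase, SLC5A5, the sodium-iodide symporter gene, had a log2 fold change of 1.01 ± 0.36 (edgeR adjusted p = 0.107) and the chloride channel gene ANO1 of -0.36 ± 0.14 (adjusted p = 0.132), and both were called without apigenin 2 (1.205 and -0.47).

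Of 19 tested enzymes and carriers that remove peroxide, 1 rose and 18 did not pass, with a median log2 fold change of 0.12, which was -0.03 with the length trend removed. This count moved with the setting, as 8 of the 19 were higher without apigenin 2, 3 without apigenin 3 and 3 with DESeq2. Over all genes 1344, 575 and 658 were higher in these settings, against 419 as reported. TXNRD1, which encodes thioredoxin reductase, rose by 0.18 ± 0.04 on the log2 scale (edgeR adjusted p = 0.0241) and was not called when DMSO 1, 2 or 3 or apigenin 1 was left out (0.17 to 0.18). TXN, its substrate gene, had a log2 fold change of 0.30 ± 0.09 (edgeR adjusted p = 0.0531). It was called without apigenin 2 (0.39), without apigenin 3 (0.16) and by DESeq2 (0.29). With the length trend removed TXN stood at 0.11 and was not called.

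Of 25 genes of mucus-secreting cells 22 were among the deposited genes and 19 were tested. Of these 19, 2 fell and 17 did not pass (median log2 fold change -0.09). In some settings 1 gene of the list was higher: DESeq2, no low-count filter, a term for replicate number, and without apigenin 1 or 2. With the length trend removed 3 were lower. Expression was partial. ZG16 had 1 read over the apigenin and 0 over the DMSO libraries, and SCGB1A1 had 2 over the apigenin and 6 over the DMSO libraries. ERN2 had 43 over the apigenin and 45 over the DMSO libraries. Other genes of the list were well detected, among them KLF4 (26.9 ± 1.41 FPKM with apigenin and 29.5 ± 0.356 FPKM with DMSO). TFF1 had 27.6 ± 5.57 FPKM with apigenin and 23.6 ± 4.08 FPKM with DMSO, and neither KLF4 nor TFF1 passed. FOXA1, a forkhead factor of endoderm and liver, fell to 57.9 ± 1.04 CPM in apigenin cultures, against 78.9 ± 3.36 CPM in DMSO cultures (-0.45 ± 0.06, edgeR adjusted p = 0.00108). BCAS1 fell to 108 ± 4.98 CPM in apigenin cultures, against 137 ± 2.33 CPM in DMSO cultures (-0.35 ± 0.06, adjusted p = 0.00326). AGR2, a disulfide isomerase that mucin assembly needs in the mouse gut, had 237 ± 25.0 FPKM with apigenin and 233 ± 5.92 FPKM with DMSO, and did not pass.

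Of 21 tested enzymes that build mucin-type sugar chains, 1 fell and 20 did not pass (median log2 fold change -0.11). Without apigenin 2, 5 were lower and 2 higher, and without apigenin 3, 2 were lower and 2 higher. With the length trend removed 1 was lower and 3 were higher. Calls over all genes rose in these settings too, to 1546 lower and 1344 higher without apigenin 2, against 641 and 419 as reported. GALNT1, which starts the chains, had 35.9 ± 0.451 FPKM with apigenin and 38.2 ± 1.71 FPKM with DMSO and did not pass. GCNT3, which branches them in mucous epithelia, had 41.1 ± 0.906 FPKM with apigenin and 36.5 ± 1.13 FPKM with DMSO, and was called higher with the length trend removed (0.20), with DESeq2 (0.17) and without apigenin 2 or 3 (0.18 and 0.14), but not as reported (0.17 ± 0.06). The gene that fell, ST6GALNAC2, a sialyltransferase gene named after its values were seen because its mean was under 1 CPM, had 8, 7 and 16 reads in the apigenin libraries, against 42, 32 and 40 in the DMSO libraries. Its log2 fold change was -1.81 ± 0.51 (edgeR adjusted p = 0.0470), and the call was lost without DMSO 1, 2 or 3 or apigenin 1 or 2 (-1.94 to -1.55).

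Of 33 tested genes of signals and factors known to act on mucin and dual oxidase genes, 2 rose, 4 fell and 27 did not pass (median log2 fold change -0.08). The number lower was 11 without apigenin 2, 7 without apigenin 3, 2 without DMSO 1 and 9 with DESeq2. Over all genes it was 1546, 827, 157 and 909 in these settings, against 641 as reported. The number higher in the list was 4 without apigenin 3, where 575 were higher over all genes, against 419 as reported. IRF1, an interferon response factor, had 34.8 ± 5.01 CPM in apigenin and 20.9 ± 1.46 CPM in DMSO cultures (0.74 ± 0.11, edgeR adjusted p = 0.00110). EREG, which encodes the epidermal growth factor receptor ligand epiregulin, had 91.0 ± 5.41 CPM in apigenin and 55.5 ± 1.82 CPM in DMSO cultures (0.71 ± 0.07, adjusted p = 3.04e-05). On the falling side, IL4R, a receptor subunit for the mucus-inducing interleukins, changed by -0.42 ± 0.07 and AHR, the aryl hydrocarbon receptor, also by -0.42 ± 0.06. ERBB3, a receptor of the same family as the epidermal growth factor receptor, changed by -0.35 ± 0.06 and lost its call without DMSO 1 (-0.34). ADAM10, a protease that releases membrane proteins, changed by -0.24 ± 0.07. It missed the threshold after removal of the length trend (-0.09) or with DMSO 1, 2 or 3 or apigenin 1 left out (-0.26 to -0.21). IL13RA1 (50.4 ± 0.668 FPKM with apigenin and 56.4 ± 1.27 FPKM with DMSO) and HIF1A (42.9 ± 3.09 FPKM with apigenin and 39.8 ± 1.78 FPKM with DMSO), which had the highest levels per length in this list, did not pass, although IL13RA1 was called lower by DESeq2 (-0.16), without apigenin 2 or 3 (-0.17 and -0.16) and with the length trend removed (-0.15).

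The label of a hepatocellular line was checked against marker genes. Of 18 hepatocyte markers 14 were tested, 4 fell and 10 did not pass, and their summed level was 566 to 592 CPM in the apigenin and 753 to 782 CPM in the DMSO libraries. ALB (-1.22 ± 0.06), SERPINA1 (-1.03 ± 0.09) and APOB (-0.75 ± 0.12) fell on the log2 scale, and TF changed by -0.24 ± 0.06 with a call that ended when DMSO 1, 2 or 3 or apigenin 1 was left out (-0.26 to -0.22) and with the length trend removed (0.0045). The hepatocyte genes APOA2, APOC3, CPS1 and ARG1 had 8 or fewer reads in either group. Of 12 biliary markers 7 were tested, 3 fell and 4 did not pass, and their summed level was 1323 to 1440 CPM in the apigenin and 1458 to 1498 CPM in the DMSO libraries. SOX9 changed by -1.20 ± 0.07, KRT19 by -0.32 ± 0.07 and SOX4 by -0.23 ± 0.06. Leaving out DMSO 1, 2 or 3 or apigenin 1 ended the call of KRT19 (-0.35 to -0.26) and of SOX4 (-0.25 to -0.22). EPCAM had 20 reads over the apigenin and 19 over the DMSO libraries. These markers moved in the direction of MUC5B, MUC13 and DUOX2, and their part in those results was not tested.

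Markers of other cell types were mixed. Some that define a type were near 0, and others were not. PTPRC, the pan-leukocyte gene, had 13 reads over the apigenin and 14 over the DMSO libraries, CDH5, an endothelial gene, had 1 over the apigenin and 13 over the DMSO libraries, and COL1A2, a fibroblast gene, had 5 over the apigenin and 7 over the DMSO libraries. By contrast CD68, a lysosomal protein gene used as a macrophage marker, had 52.7 ± 2.07 FPKM with apigenin and 52.2 ± 2.16 FPKM with DMSO. LUM, a fibroblast matrix gene, had 10.8 ± 0.414 FPKM with apigenin and 8.63 ± 0.455 FPKM with DMSO, whereas DCN had 0.138 ± 0.0376 FPKM with apigenin and 0.111 ± 0.0233 FPKM with DMSO and did not pass. KDR had 7.94 ± 0.812 FPKM with apigenin and 9.56 ± 0.383 FPKM with DMSO, and PECAM1 had 6.02 ± 0.199 FPKM with apigenin and 6.94 ± 0.310 FPKM with DMSO. Of 3 tested fibroblast markers LUM was called higher (0.33 ± 0.08), of 4 leukocyte markers ITGAM was called lower (-0.56 ± 0.14), and leaving out DMSO 1, 2 or 3 or apigenin 1 ended the call of LUM (0.29 to 0.37) and of ITGAM (-0.63 to -0.47). The endothelial markers KDR (-0.27 ± 0.08, edgeR adjusted p = 0.0536) and PECAM1 (-0.20 ± 0.07, adjusted p = 0.0897) did not pass as reported. KDR was called lower by DESeq2 (-0.27), with the length trend removed (-0.22), with no or a stricter filter (-0.27 and -0.26) and without apigenin 2 (-0.35), and PECAM1 without apigenin 3 (-0.23). The summed level of 7 fibroblast markers was 29.3 to 31.8 CPM in the apigenin and 23.8 to 26.0 CPM in the DMSO libraries. That of 5 endothelial markers was 87.4 to 96.4 CPM in the apigenin and 105 to 111 CPM in the DMSO libraries. That of 6 leukocyte markers was 91.2 to 101 CPM in the apigenin and 95.4 to 102 CPM in the DMSO libraries. All 6 libraries come from 1 cell line, and the part of these marker genes in the results was not tested.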

How the data were processed

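Libraries were built with a VAHTS Universal V6 kit from TRIzol-extracted RNA, per the labels' protocols. The submitters' processing notes name the GRCh38 (hg38) build and the tools HISAT2, HTSeq and fastp, without versions. The authors deposited for each sample raw read counts per gene symbol and FPKM values. The deposited FPKM were found to be the count divided by 1 length per gene and by the summed counts in 100% of genes, within a relative tolerance of 0.0001, so lengths were taken from them. Gene positions came from the RefSeq table of GRCh38.p14.

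Counts were tested with edgeR 4.0.16 (R 4.3.3) by the quasi-likelihood test, TMM scaling, edgeR's standard low-count filter and Benjamini-Hochberg adjustment over 15173 genes. Standard errors are the fold change over the root of F. Alternatives were DESeq2 1.42.0, other scalings and filters, limma 3.58.1 on log2(FPKM + 1) or log2(FPKM + 0.1), a lowess trend on log2 length removed per library (span 0.3), the replicate block, and each library left out. The fits were tested on simulated data. The members and lists were chosen with earlier results of these data known. From each list the text names up to 6 called genes that averaged at least 1 CPM, and the 2 highest in FPKM. Other genes with few reads or that define a cell type, and KLF4, TFF1 and ST6GALNAC2, were named after their values were seen. P-values measure only the spread between these cultures, which share 1 line.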

Additional observations from a re-analysis of the deposited data

How the results depend on the processing

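The 6 tested genes kept their direction in all 18 alternative settings. DUOX2 was called in 17 of them, MUC5B in 14, MUC1 in 13, MUC13 in 11, DUOXA2 in 3 and MUC5AC in 2. With any 1 library left out, the log2 fold changes ranged from -1.15 to -0.75 for MUC5B, -0.36 to -0.11 for MUC5AC, 0.53 to 0.57 for MUC1, and -0.27 to -0.21 for MUC13. Genes of the set called then ranged from 1 to 4 lower and 0 to 1 higher (at an unadjusted p under 0.05 MUC1 was higher in each), and over all genes from 157 to 1546 lower and 103 to 1344 higher, lowest without DMSO 1 and highest without apigenin 2. Without DMSO 1, 2 or 3 or apigenin 1, fewer genes were called in each direction over all genes than as reported. Deviations of same-numbered libraries correlated at -0.017, -0.019 and -0.048, so no pairing by replicate number was seen. With 3 libraries a group, these values cannot show whether the cultures were paired. With the replicate block, 776 genes were lower and 455 higher, and MUC13 stood at -0.24 without a call. With upper-quartile factors MUC13 stood at -0.23 without a call. DESeq2 called 909 genes lower and 658 higher. Without a filter on low counts 1096 genes were lower and 865 higher, 5 of the set were lower, and MUC5AC (-0.27) and DUOXA2 (-0.85) gained a call. With the length trend removed 816 genes were lower (908 with the replicate block as well) and 702 higher (828) and DUOXA2 stood at -0.95 (-0.91 with the block), with a call. On log2(FPKM + 1), which understates low genes, limma called 303 genes lower and 352 higher, and MUC5B (-0.43) lost its call, as it did on log2(FPKM + 0.1) (-0.89), where 289 genes were lower and 336 higher, so that calls leaned to higher in both, against 641 lower and 419 higher as reported. On log2(FPKM + 1) without a filter limma called 60 genes lower and 78 higher, and 0 of the set in either direction, although 4 were lower and 1 higher at an unadjusted p under 0.05. There MUC5B stood at -0.43, MUC1 at 0.34, MUC13 at -0.23 and DUOX2 at -0.49. The cause of these differences was not tested. Some genes near 0 changed sign: with the length trend removed MUC20 stood at -0.018 (-0.025 with the block), AGR2 at -0.089 (-0.090), CD68 at -0.095 (-0.095) and TF at 0.0045. With 1 library left out MUC20 ranged from -0.018 to 0.14, AGR2 from -0.074 to 0.085, SPP1 from -0.055 to 0.017 and CD68 from -0.017 to 0.051. Depth limits DUOX1 and, at 47 to 142 reads a library, DUOXA2.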
